A study of Homo sapiens with 6 samples.

Results

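The ubiquitin-specific protease (USP) genes examined here were the protein-coding genes of the deposited table whose symbol is USP followed by a digit, without the 26 USP17L copies. This gave 53 of 58302 genes. One of them, USP6NL, shares its name with USP6 but encodes a RAB GTPase activating protein and no protease. By their titles the libraries came from the human breast cancer line MDA-MB-231-DR, which was derived from the triple-negative line MDA-MB-231, resists doxorubicin and was kept by the study in medium with a low concentration of that drug. There were 3 control libraries with no treatment named in the labels and 3 libraries of cells treated with cyperotundone (CYT), a compound of the sedge Cyperus rotundus. The sample titles name the resistant line for all 6 libraries, whereas the source name and cell line fields give MDA-MB-231, and no parental library was analysed here against which the resistance could be checked. Neither the CYT dose nor the treatment time is given for these libraries in the sources used here. The study describes its data in general as coming from independent experiments, but the labels do not say that the sequenced replicates were separate cultures, so p-values measure the spread between these libraries, which may be technical.

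Ubiquitin-specific proteases are cysteine proteases that cut ubiquitin from proteins or from ubiquitin chains, and they form a large family of deubiquitinases. Members act on histones and DNA repair factors, on cyclins, on receptors sorted in endosomes, at mitochondria and at the proteasome. USP37 is known for removing ubiquitin from cyclin A before S phase, and the study used it as a marker of cancer stemness. USP8 acts in endosomal sorting of receptors such as EGFR, and the study followed its full-length transcript after SRSF1 was depleted.

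The 7 markers chosen for MDA-MB-231, such as VIM and CD44, had at least 926 counts in every library. Of the 7 markers chosen for the luminal line MCF7, ESR1, PGR, TFF1, EPCAM and CDH1 had at most 16 counts in a library, while GATA3 had 33 to 93 and KRT19 had 147 to 6722. Raw counts of KRT19, GATA3 and 5 of the MDA-MB-231 markers (VIM, AXL, MSN, KRT18 and CAV1) were lower in every CYT library than in any control library, and those of CDH1, PTPRC and ALB, at 0 in control, were from 2 to 16 in CYT libraries. PTPRC, PECAM1, ALB and MYH11, markers of other cell types, had at most 35 counts. Control libraries held 14050849 to 17770102 counts, and CYT libraries 13056270 to 14106017. The libraries of replicate 2 stood apart from the others of their group, with correlations across genes on the log2 scale of 0.905 and 0.9045 for CYT replicate 2 and of 0.953 and 0.960 for control replicate 2, against 0.970 and 0.971 for the remaining pairs. Replicate 2 was the highest library of both groups in 22 of the 47 tested USP genes (46.8%) and in 27.4% of all tested genes, and its part in the results was not tested, beyond the values without it given here.

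Among the 53 genes, 47 passed edgeR's filter on low counts and were tested. CYT-treated cells had lower levels of USP18, USP13, USP4, USP40 and USP39 and higher levels of USP27X, USP49, USP20 and USP11. These 9 genes (19.1% of 47) had an adjusted p under 0.05 in edgeR's quasi-likelihood test over 15572 genes, and are called higher or lower here. Of all genes tested, 28.6% were called, 15.7% higher and 12.9% lower, and whether the USP genes differ from all genes in this share was not tested. With upper-quartile normalization the split was 4 higher and 3 lower, in place of 4 and 5, as USP39 and USP40 lost their calls, and 28.9% of all genes were called. The median log2 fold change of the 47 genes was -0.24, beside 0.0064 for all genes, and these were -0.08 and 0.16 with upper-quartile normalization, which moves all genes up. With the replicate number as a block, 18 of the 47 were called (8 higher, 10 lower), all 9 included, and 39.9% of all genes were called in that fit. DESeq2 called 13 of the 47 and 33.9% of all genes, and a correction for GC content and length called 22, with 46.8% of all genes alone and 45.6% together with the block. The count changed when libraries were left out. It was 5 without control replicate 1, 4 without control replicate 2 and 3 without control replicate 3. It was 15 without CYT replicate 2 and 16 without both libraries of replicate 2. The share of all genes called in these fits is not given here, so whether the USP genes moved apart from all genes cannot be told. An unadjusted p under 0.05 was reached by 17 of the 47, these 9 included, and by 6374 of all 15572 genes.

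**Figure D1:**
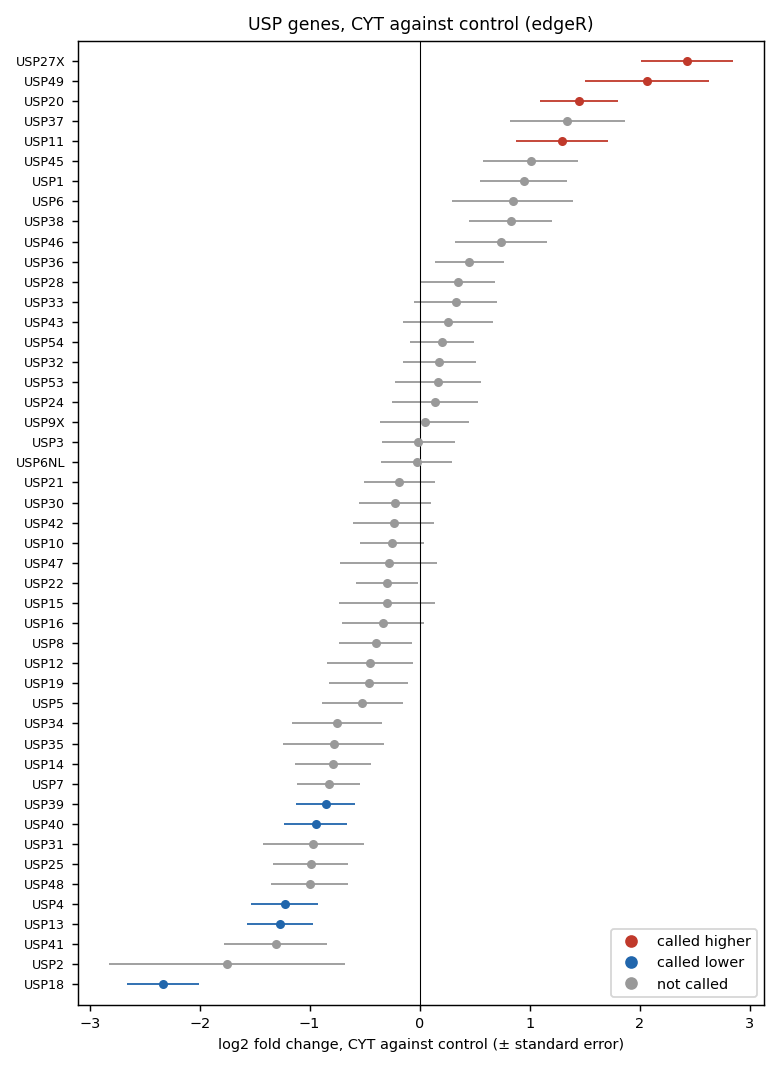
Log2 fold change of the 47 tested USP genes, CYT against control, 1 gene per line, with the standard error of edgeR's fit as a bar and called genes in colour. USP18 lies lowest at -2.33 and USP27X highest at 2.43, and 38 genes are grey because they were not called.

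USP37 lies on the minus strand of chromosome 2 of GRCh38 from 218450251 to 218568361. The study also measured it by qPCR, and reported lower USP37 RNA and protein in MDA-MB-231-DR cells after CYT. Both primers of that assay match 5 of the 11 USP37 transcripts in GENCODE release 29, with a product of 91 bases within the coding sequence. The pair is shown because it marks which part of the transcript that assay reads, whereas the counts here cover the whole gene. The forward primer lies in exon 6 (exon 5 in 1 of the 5 transcripts) at chr2:218549871-218549891, and the reverse primer crosses into the next exon between positions 218547084 and 218549821. No base is capitalized, since no part of either is singled out.
USP37 forward: ggtctggtagttttggagcca
USP37 reverse: gcagaagcctgattgtctgag

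In the sequencing data USP37 had 11.5, 14.9 and 5.68 CPM, which is its count relative to library size after TMM scaling, in control replicates 1 to 3. In CYT replicates 1 to 3 it had 15.0, 48.7 and 17.7 CPM. The groups did not overlap, but CYT replicate 1 exceeded control replicate 2 by little and CYT replicate 2 was far above the other 5 libraries. The exact permutation test gave a two-sided p of 0.1, the smallest that 3 libraries against 3 allow. Its log2 fold change was 1.34 (standard error, SE, 0.52), and USP37 was not called (edgeR adjusted p = 0.0832). Its value was 0.60 without CYT replicate 2 (edgeR adjusted p = 0.265) and 0.96 without both libraries of replicate 2 (edgeR adjusted p = 0.0707). With the replicate block it was called higher (log2 fold change 1.25, edgeR adjusted p = 0.0154). These log2 fold changes have the opposite sign to the decrease of USP37 RNA that the study reported from qPCR. The reason for this was not tested.

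USP8 lies on chromosome 15 from 50424380 to 50514419 and encodes an enzyme that binds STAM proteins on endosomes. Its level was 22.3, 32.4 and 20.5 CPM in control replicates 1 to 3 and 17.3, 24.5 and 15.2 CPM in CYT replicates 1 to 3. The groups overlapped, since CYT replicate 2 lay above control replicates 1 and 3, and within each group replicate 2 was the highest. Within each same-numbered pair the CYT library was the lower one, and the fit with the replicate block did not call USP8 either (edgeR adjusted p = 0.212). It had a log2 fold change of -0.40, with a 95% confidence interval from -1.15 to 0.35, and USP8 was not called (edgeR adjusted p = 0.399). None of the 17 alternative fits called it, with log2 fold changes from -0.64 to -0.17. Counts per gene do not separate isoforms, so a change of splicing at a constant level would not be seen.

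**Figure D2:**
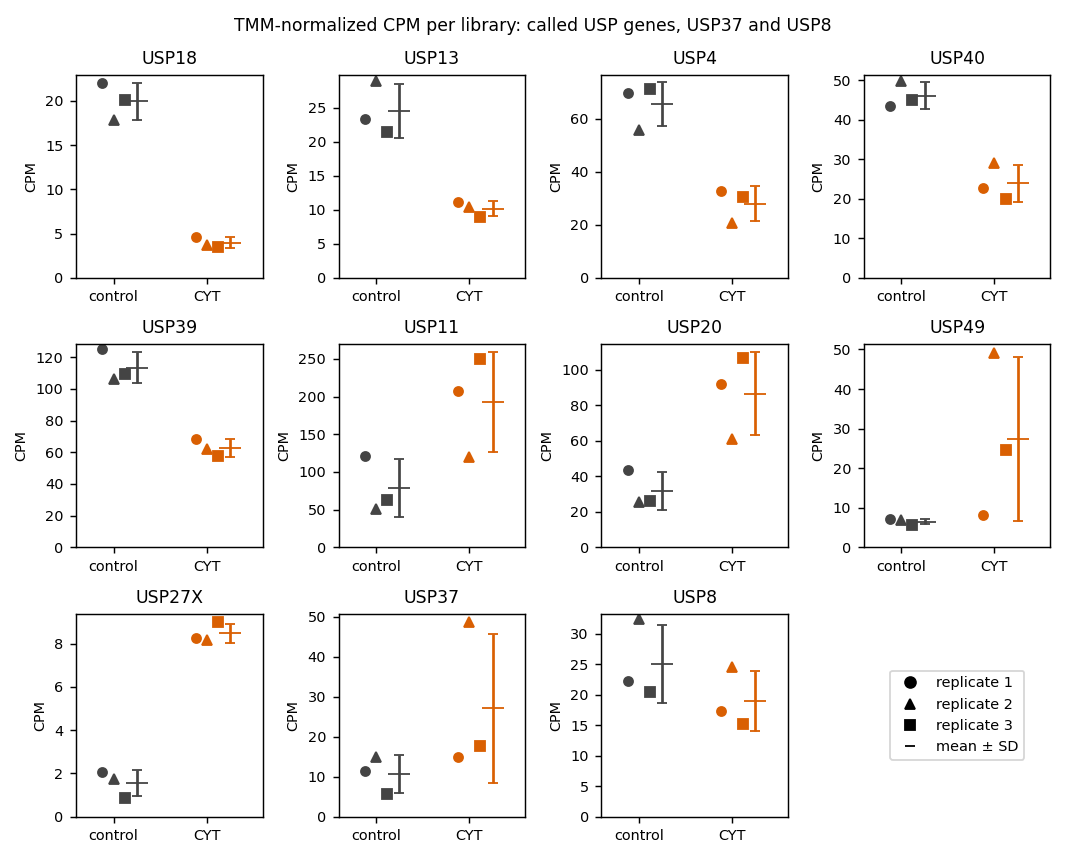
TMM-normalized CPM of the 9 called USP genes, USP37 and USP8 in each library, with symbols for the replicate number and the mean ± SD (n = 3 per group) beside them. The CYT libraries of USP18 lie between 3.50 and 4.65 CPM and those of control between 17.8 and 22.0 CPM, while 1 CYT library of USP37 and 1 of USP49 lie far above the rest of their group.

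USP18 fell most. Its product removes the ubiquitin-like protein ISG15 from substrates and, bound to the interferon receptor chain IFNAR2, dampens interferon signalling. The gene lies on chromosome 22 from 18149899 to 18177397. It had 355, 335 and 279 counts in control replicates 1 to 3 and 66, 52 and 44 counts in CYT replicates 1 to 3, or 20.0 ± 2.09 CPM and 3.95 ± 0.618 CPM (SD, n = 3 each). No CYT library reached the lowest control library. edgeR gave a log2 fold change of -2.33 (SE 0.32, edgeR adjusted p = 0.00133), a 5.05-fold lower mean CPM. USP18 was called lower in all 17 alternative fits. For its partners the differences were smaller. ISG15 had 370.3 ± 100.4 CPM in control and 266.2 ± 94.7 CPM in CYT cells (SD, n = 3 each), with overlapping groups and no call (log2 fold change -0.48, edgeR adjusted p = 0.345), and IFNAR2 had a log2 fold change of -0.02.

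USP41, a near copy of USP18 on the same chromosome, could share its reads. Over 917 aligned coding bases of 1 GENCODE release 29 transcript of each gene, 905 were identical (98.7%), and 23.0% of the 50-base words of USP18 transcripts also occur in USP41. Coding bases 203 to 292 of both are shown as an example of how few positions tell them apart, with capitals at the 2 differing bases. They lie in exons 3 and 4 of USP18 at chr22:18160217-18161827, plus strand, and in exons 6 and 7 of USP41 at chr22:20375598-20377206, minus strand, with an intron in between in both.
USP18: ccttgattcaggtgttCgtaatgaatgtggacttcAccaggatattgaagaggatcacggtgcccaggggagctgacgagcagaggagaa
USP41: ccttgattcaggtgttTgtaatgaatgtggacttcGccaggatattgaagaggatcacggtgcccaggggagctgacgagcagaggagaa

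USP41 had 36, 26 and 29 counts in control and 9, 12 and 10 counts in CYT libraries, with no overlap between groups, a log2 fold change of -1.31 and no call (edgeR adjusted p = 0.0634). It was called lower in 5 alternative fits, among them both limma fits (limma adjusted p = 0.0187 and 0.0287). How the counting treated reads that match both genes is not given in the sources used here, so the values of both are uncertain to that extent. USP41 had fewer counts than USP18 in every library.

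Among 15 members known for work on chromatin and DNA repair, 13 were tested, 3 were called higher and 0 lower, beside 15.7% higher and 12.9% lower of all genes. With so few members this and the counts of the other functional groups are descriptions, and none was tested against all genes. USP27X, an intronless gene on the X chromosome whose product acts on histone H2B with ATXN7L3 and ENY2 like its relative USP22, rose most. It had 33, 33 and 12 counts in control and 117, 115 and 113 counts in CYT libraries, and its level went from 1.56 ± 0.617 to 8.47 ± 0.440 CPM (SD, n = 3 each). The groups were far apart and the CYT libraries were close together. This was a log2 fold change of 2.43 (SE 0.42, edgeR adjusted p = 0.00305), and the call held in all 17 alternative fits. USP22, the paralogue within the SAGA complex, had 496, 406 and 361 CPM in control and 398, 272 and 360 CPM in CYT libraries, with overlapping groups and no call (log2 fold change -0.29). The third relative, USP51, had no count in any library. Neither ATXN7L3 (log2 fold change -0.72) nor ENY2 (0.65) was called.

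USP11, which takes part in homologous recombination, had 122, 50.4 and 63.3 CPM in control and 207, 120.2 and 250.2 CPM in CYT libraries. CYT replicate 2 lay just below control replicate 1, so the groups overlapped. Its log2 fold change was 1.29 (SE 0.42, edgeR adjusted p = 0.0424), and the call was lost in the fits without control replicate 2, control replicate 3, CYT replicate 1 or CYT replicate 3 (log2 fold change from 1.06 to 1.74 over all 6 such fits, edgeR adjusted p from 0.00935 to 0.154).

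USP49, an H2B deubiquitinase, had 7.07, 6.76 and 5.68 CPM in control and 8.04, 49.2 and 24.6 CPM in CYT libraries. The CYT libraries were spread widely and the lowest was near the controls. Its fitted log2 fold change was 2.07 (SE 0.56, edgeR adjusted p = 0.0228). The call was lost without any one of the 3 control libraries (edgeR adjusted p up to 0.0846), in both limma fits, and without both libraries of replicate 2. Without CYT replicate 2 the value was 1.32, still called. USP49 lies across TOMM6 and AL365205.1 on the opposite strand. In CYT replicates 1 to 3 these had 383, 3122 and 431 counts and 2021, 463 and 2273 counts, high in one where low in the other. In control replicates 1 to 3 they had 2788, 377 and 1652 counts and 467, 2578 and 972 counts, where USP49 had 114, 127 and 79. Use of strand in counting is not given in the sources used here, and a part of shared reads was not tested.

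The other members of this kind were not called. USP1, which with WDR48 removes ubiquitin from PCNA and FANCD2, had a log2 fold change of 0.95 (edgeR adjusted p = 0.102). It was called higher with the replicate block (0.89, edgeR adjusted p = 0.0214), had 0.49 without CYT replicate 2 (edgeR adjusted p = 0.248), and was called higher without both libraries of replicate 2 (0.82, edgeR adjusted p = 0.0272). WDR48 had 0.77 and WDR20 had 1.29 (edgeR adjusted p = 0.0513), neither called, though 10 of 17 alternative fits called WDR20 and 3 called WDR48. USP7, known for acting on MDM2 and p53, had -0.83 (edgeR adjusted p = 0.0564) with no overlap between groups, and was called lower with the block. Its binding partner GMPS, an enzyme of guanine nucleotide synthesis, fell by 1.72 on the log2 scale (SE 0.29, edgeR adjusted p = 0.0029). USP48 had -1.001 (edgeR adjusted p = 0.0557) and was called lower with the block. USP3, USP10, USP16, USP21, USP28 and USP47 had log2 fold changes from -0.33 to 0.35.

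Of the 6 members placed with TGF-beta, Wnt and NF-kB signalling, USP18 and USP4 were called lower and 0 higher, beside 28.6% of all genes called in either direction. USP4, which binds the spliceosome recycling factor SART3 and the type I TGF-beta receptor, had 69.7, 55.9 and 71.1 CPM in control and 32.7, 20.6 and 30.6 CPM in CYT libraries. The groups were well apart. Its log2 fold change was -1.23 (SE 0.31, edgeR adjusted p = 0.0156), and the call was lost without control replicate 1 or control replicate 3 (edgeR adjusted p up to 0.0635). Its paralogue USP15 had a log2 fold change of -0.30 with no call, and the third paralogue, USP11, was the one called higher. SART3 was not called (0.35). Among the others, USP25 had -0.99 (edgeR adjusted p = 0.0562) and USP34, which acts on axin, had -0.75 (edgeR adjusted p = 0.195), and both were called lower with the block. USP9X had 0.04.

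USP13, which has been linked to the degradation of proteins of the endoplasmic reticulum, was the 1 gene called among the 4 placed with the cell cycle, beside 28.6% of all genes. It had 23.3, 28.9 and 21.4 CPM in control and 11.1, 10.3 and 8.98 CPM in CYT libraries, and the groups were well apart. Its log2 fold change was -1.27 (SE 0.30, edgeR adjusted p = 0.0129), and 16 of 17 alternative fits called it, the exception being the one without CYT replicate 3 (edgeR adjusted p = 0.0565). USP5, its paralogue, which takes apart free ubiquitin chains, was not called (-0.52, edgeR adjusted p = 0.318). USP2 reached 24 counts at its highest and none in CYT replicates 1 and 2, and it was called lower in the fit without CYT replicate 3, which had 11 counts.

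In the endosomal group of 4 genes, USP20 was called higher and USP8, USP6 and USP32 were not called, beside 15.7% of all genes called higher. USP20 acts on the beta-adrenergic receptor and, like its paralogue USP33, binds the von Hippel-Lindau protein. It had 43.8, 25.3 and 26.0 CPM in control and 92.3, 60.8 and 106.8 CPM in CYT libraries, and every CYT library was above every control library. It had a log2 fold change of 1.45 (SE 0.35, edgeR adjusted p = 0.0141), and the call was lost without control replicate 2 or control replicate 3 (edgeR adjusted p up to 0.0759). C9orf78, which overlaps it on the opposite strand, had a log2 fold change of -0.23. USP33 had 0.33 with no call. Of the partners of USP8 in endosomal sorting, HGS fell by 1.33 and STAM2 by 1.34 on the log2 scale (edgeR adjusted p of 0.0332 and 0.0262), while STAM was not called (-0.60).

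USP39 lacks the catalytic residues of the family and is a part of the spliceosome. It had 125, 106 and 109.6 CPM in control and 68.6, 62.2 and 57.4 CPM in CYT libraries, with no overlap. edgeR gave a log2 fold change of -0.86 (SE 0.27, edgeR adjusted p = 0.0401). USP40, a member of little known function, had 43.3, 49.9 and 45.0 CPM in control and 22.8, 29.04 and 19.9 CPM in CYT libraries, also with no overlap, and a log2 fold change of -0.95 (SE 0.29, edgeR adjusted p = 0.0356). Both kept a call in the fit without CYT replicate 2 and lost it without any other single library (edgeR adjusted p up to 0.135 for USP39 and 0.130 for USP40). Both also lost it with upper-quartile normalization and with the filter on mean CPM. USP39 lost it with no filter (edgeR adjusted p = 0.0592) and with protein-coding genes only (edgeR adjusted p = 0.0573), and USP40 lost it in both limma fits (limma adjusted p = 0.0719 and 0.0670). C2orf68, which overlaps USP39 on the opposite strand, was called lower as well (-1.13, edgeR adjusted p = 0.0284), and a part of shared reads in either value was not tested.

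**Figure D3:**
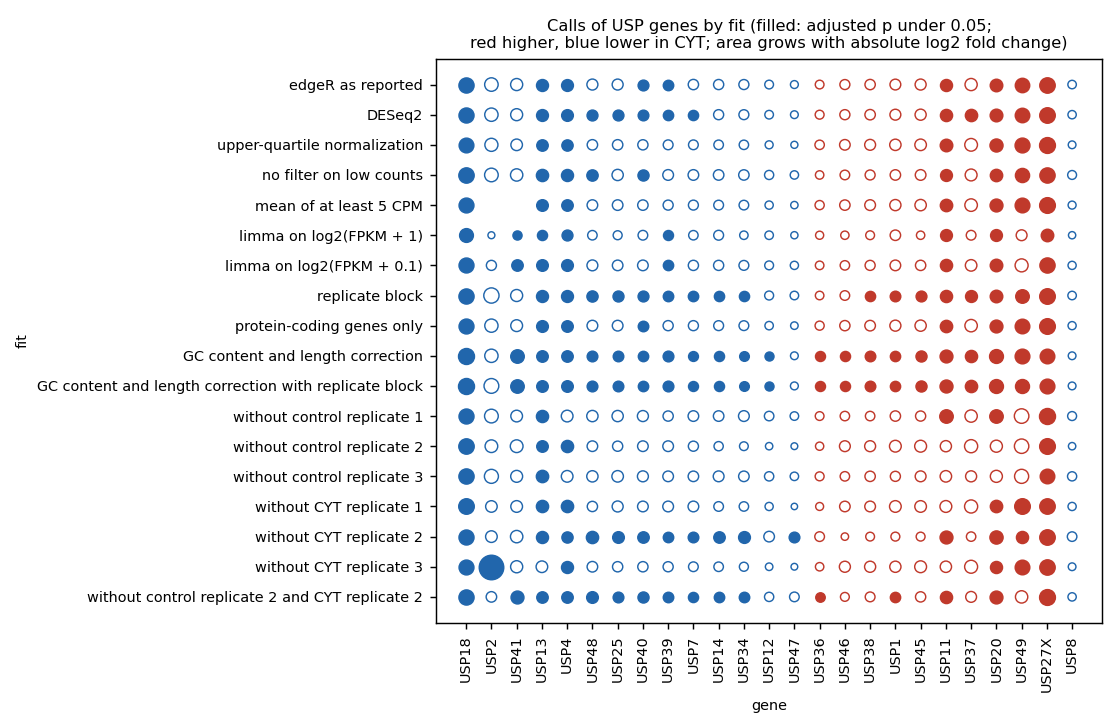
Calls of USP genes in edgeR's fit as reported and in 17 alternative fits, with filled circles for an adjusted p under 0.05, red for higher and blue for lower in CYT, and circle area growing with the absolute log2 fold change. USP18 and USP27X are filled in every row, USP8 in none, and USP37 in 4.

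The remaining members were not called. USP19 and USP30, anchored in membranes of the endoplasmic reticulum and of mitochondria, had log2 fold changes of -0.46 and -0.22. USP14, which acts on the proteasome, had -0.78 (edgeR adjusted p = 0.117) and was called lower with the block, whereas USP38 (0.83) and USP45 (1.01) were called higher with it. Without CYT replicate 2 these last were at 0.46 and 0.49 (edgeR adjusted p = 0.305 and 0.323). USP12 and USP46, close relatives that both work with WDR48, had -0.45 and 0.74, and the difference between them was not tested. The correction for GC content and length called USP12 lower (edgeR adjusted p = 0.0351) and USP46 higher (edgeR adjusted p = 0.0157). USP12 had -0.19 without control replicate 2, -0.22 without CYT replicate 3 and -0.90 without CYT replicate 2, and USP46 had 0.20 without CYT replicate 2, with no call in these fits. USP36 had 0.45, with a call as higher under the same correction (edgeR adjusted p = 0.0106), and its relative USP42 had -0.24. USP24, USP43, USP53, USP54 and USP6NL had values from -0.03 to 0.26, and USP31 (-0.97) and USP35 (-0.78) were not called in any fit. The 6 members that did not pass the filter were USP26, USP29, USP44, USP50, USP51 and USP9Y, with at most 14 counts in a library. Where a library had no count, 3 counts would have been from 0.160 to 0.238 CPM, which covers counting error only. In 15 of the 47 tested genes (31.9%), 5 higher and 10 lower, the CPM values of the groups did not overlap, beside 46.1% of all genes tested.

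Compared per length in FPKM, the level differed widely between members. USP5 (37.2 ± 10.03 FPKM) and USP22 (34.4 ± 4.38 FPKM) had the highest means in control libraries, ahead of USP19 (15.3 ± 4.04 FPKM), USP14 (13.4 ± 4.36 FPKM) and USP1 (13.4 ± 5.09 FPKM, SD, n = 3 each). In CYT libraries the order was USP22 (28.4 ± 4.44 FPKM), USP1 (26.2 ± 14.0 FPKM), USP5 (26.2 ± 7.70 FPKM) and USP11 (18.9 ± 5.42 FPKM, SD, n = 3 each). USP5 and USP22 differed by less than their spread in either group, and so did USP19, USP14 and USP1 in control. Averaged over the 6 libraries, 6 tested members were above 10 FPKM, 31 were between 1 and 10, and 10 were below 1, with a median of 1.82 FPKM. USP37 (0.744 ± 0.351 and 1.95 ± 1.47 FPKM) and USP8 (0.927 ± 0.294 and 0.715 ± 0.233 FPKM, SD, n = 3 each) were in the lower part of this order.

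**Figure D4:**
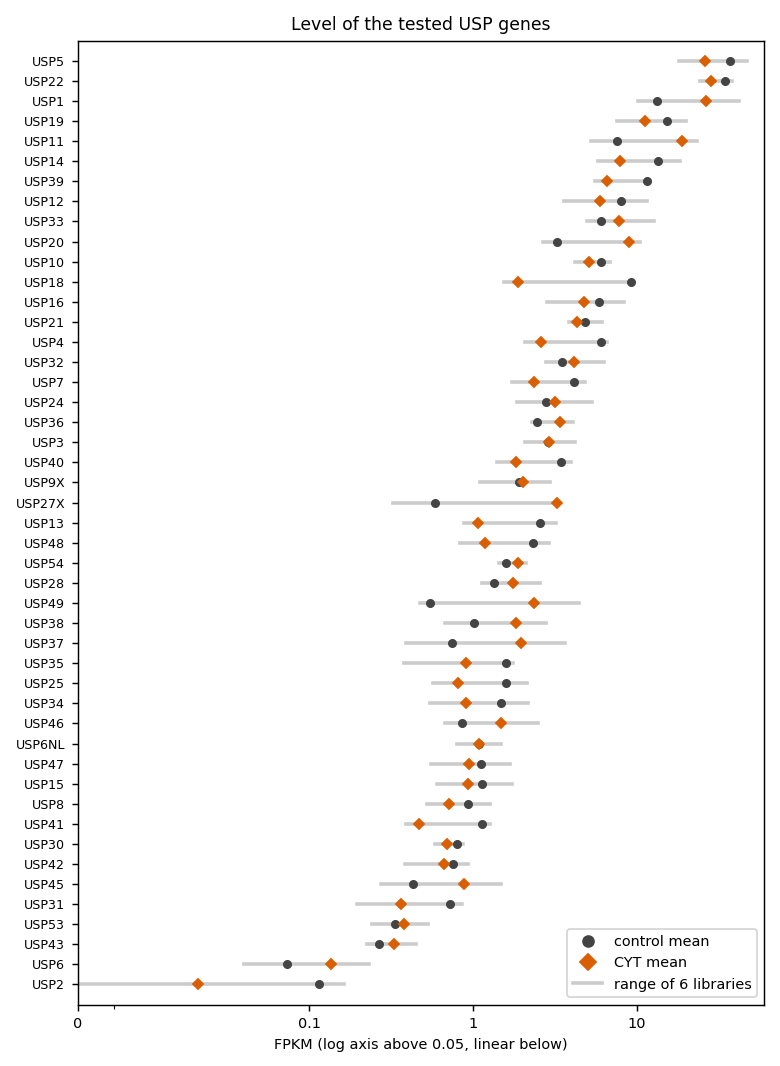
Mean FPKM of the 47 tested USP genes in control and CYT libraries, with the range of all 6 libraries as a grey bar, on an axis that is logarithmic above 0.05 and linear below. Averaged over the 6 libraries, USP5 (31.7 FPKM) and USP22 (31.4 FPKM) lie highest and USP2 lowest at 0.074 FPKM.

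The 250 bases before the RefSeq start were available for 40 of the 53 genes (GRCh38.p14). The genes without a window, in which no motif was searched, were USP18, USP24, USP26, USP31, USP37, USP41, USP42, USP43, USP44, USP48, USP51, USP9X and USP9Y. Those of USP27X and USP20, called higher, and of USP13 and USP4, called lower, are shown so that the regulatory sequence of members that moved in opposite directions can be set side by side. Capitals mark matches on either strand to any of 5 motifs. The GC box was searched as GGGCGGG, and the box that binds NF-Y by the letters of its name, CCAAT. An ETS site was searched as CCGGAAGT and an antioxidant response element as TGACNNNGC. The core of a cAMP response element was searched as TGACGT. The windows are chrX:49879234-49879483 and chr9:129835208-129835457, both on the plus strand, chr3:179652790-179653039 on the plus strand and chr3:49340054-49340303 on the minus strand. The RefSeq start of USP27X lies upstream of the gene start in the deposited table. The windows of USP20, USP13 and USP4 lie within their genes as the deposited table gives them, downstream of the gene start there.
USP27X: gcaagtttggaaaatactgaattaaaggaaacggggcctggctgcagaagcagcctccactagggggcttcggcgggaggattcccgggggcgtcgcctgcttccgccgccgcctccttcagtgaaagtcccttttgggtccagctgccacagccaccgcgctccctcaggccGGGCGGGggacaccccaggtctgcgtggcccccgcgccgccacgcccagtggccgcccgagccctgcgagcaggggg
USP20: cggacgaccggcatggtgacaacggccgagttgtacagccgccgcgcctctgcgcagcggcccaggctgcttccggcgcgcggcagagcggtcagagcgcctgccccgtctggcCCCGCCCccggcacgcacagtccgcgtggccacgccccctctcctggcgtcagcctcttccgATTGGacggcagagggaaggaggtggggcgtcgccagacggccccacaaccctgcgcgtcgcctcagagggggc
USP13: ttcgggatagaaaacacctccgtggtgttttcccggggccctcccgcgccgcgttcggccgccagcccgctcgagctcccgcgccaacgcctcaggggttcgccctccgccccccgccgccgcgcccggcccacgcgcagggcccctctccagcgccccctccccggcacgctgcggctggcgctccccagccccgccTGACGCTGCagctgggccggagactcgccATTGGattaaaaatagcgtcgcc
USP4: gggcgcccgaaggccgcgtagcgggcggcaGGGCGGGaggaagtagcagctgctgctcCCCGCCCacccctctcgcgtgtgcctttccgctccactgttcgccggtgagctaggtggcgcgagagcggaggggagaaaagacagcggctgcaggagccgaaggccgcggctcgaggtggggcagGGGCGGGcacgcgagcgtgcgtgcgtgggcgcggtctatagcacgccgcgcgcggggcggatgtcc

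A GC box was found in 28 of the 40 windows (70.0%), in 52.2% of the windows of all tested genes with an entry and in 31.4% of all 27305 windows. A CCAAT box was found in 11 windows, in 3 of the 4 genes called higher (USP11, USP20 and USP49) and in 1 of the 4 called lower that had an entry (USP13), against 35.0% of the windows of tested genes and 33.0% of all windows. The antioxidant response element letters were found in USP2, USP13, USP14 and USP38 (10%, beside 12.1% of the windows of tested genes and 11.0% of all windows). The cAMP response element core was found in USP2, USP8, USP22 and USP36 (10%, beside 10.5% of the windows of tested genes). An ETS site was found in USP11, USP16 and USP19 (7.5%, beside 7.14% of the windows of tested genes). Each motif was searched on both strands and matches of different motifs may overlap. TATAAA was found in 2 windows (5.0%), in 5.36% of the windows of tested genes and in 11.1% of all windows. CACGTG was found in 3 windows (7.5%, beside 8.98% of the windows of tested genes). Neither an E2F site (TTTGGCGC) nor an interferon-stimulated response element was found in any of the 40, which do not include USP18. These 2 motifs are rare, at 0.904% and 2.27% of the windows of tested genes.

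Outside the USP genes, the other families of deubiquitinases were followed with a list of known members. Of 33 tested genes, 4 were called higher and 3 lower (21.2%), against 28.6% of all genes, and the median log2 fold change was 0.28, beside 0.0064 for all genes. With upper-quartile normalization these medians were 0.42 and 0.16, and the GC and length correction gave 0.19 for the 33 genes. The split was 5 higher and 1 lower with upper-quartile normalization, with the filter on mean CPM and with protein-coding genes only. CYLD, which cuts linear and lysine 63-linked chains and limits NF-kB signalling, rose most. It had 480, 907 and 440 counts in control and 3176, 6489 and 2712 counts in CYT libraries, with a log2 fold change of 3.04 (SE 0.41, edgeR adjusted p = 0.00119), and every alternative fit called it. The count of 7 was 3 without control replicate 1, 2 without control replicate 3, and 4 without CYT replicate 1 or CYT replicate 3. For these fits the share of all genes called is not given here. TNFAIP3, another inhibitor of NF-kB signalling, rose by 1.30, OTUD1 by 1.22 and VCPIP1, a partner of the ATPase VCP, by 1.32 on the log2 scale, and alternative fits called them in 15, 14 and 11 of 17 cases. PSMD14, the deubiquitinase of the proteasome lid, fell by 1.596 (SE 0.35, edgeR adjusted p = 0.00936) and was called in all 17 alternative fits, while OTUD6B (-1.43, with overlapping groups) and STAMBPL1 (-0.996) were called lower here but in only 6 and 7 of the 17 alternative fits.

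Among 20 tested partner genes of USP enzymes and genes of ubiquitin supply, 1 was called higher and 4 lower (25%), against 28.6% of all genes. With upper-quartile normalization 3 were higher and 3 lower. The median was -0.04, and 0.11 with upper-quartile normalization. UBB, a polyubiquitin gene, rose by 1.22 on the log2 scale (SE 0.29, edgeR adjusted p = 0.0130), from 413 ± 101 to 963 ± 121 CPM (SD, n = 3 each), with no overlap. G3BP1, which binds USP10, fell by 0.94 on the log2 scale, with a call in 7 of 17 alternative fits, and USP10 was not called (-0.25). G3BP2, in the same list, went the other way (1.06, edgeR adjusted p = 0.0700). Its groups did not overlap, and it was not called here but in 6 of 17 alternative fits. With the replicate block, 11 of the 20 were called (5 higher, 6 lower), beside 39.9% of all genes in that fit. The count of 5 was 2 without control replicate 3, and 3 without control replicate 2, CYT replicate 1 or CYT replicate 3. For these leave-out fits the share of all genes called is not given here.

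**Figure D5:**
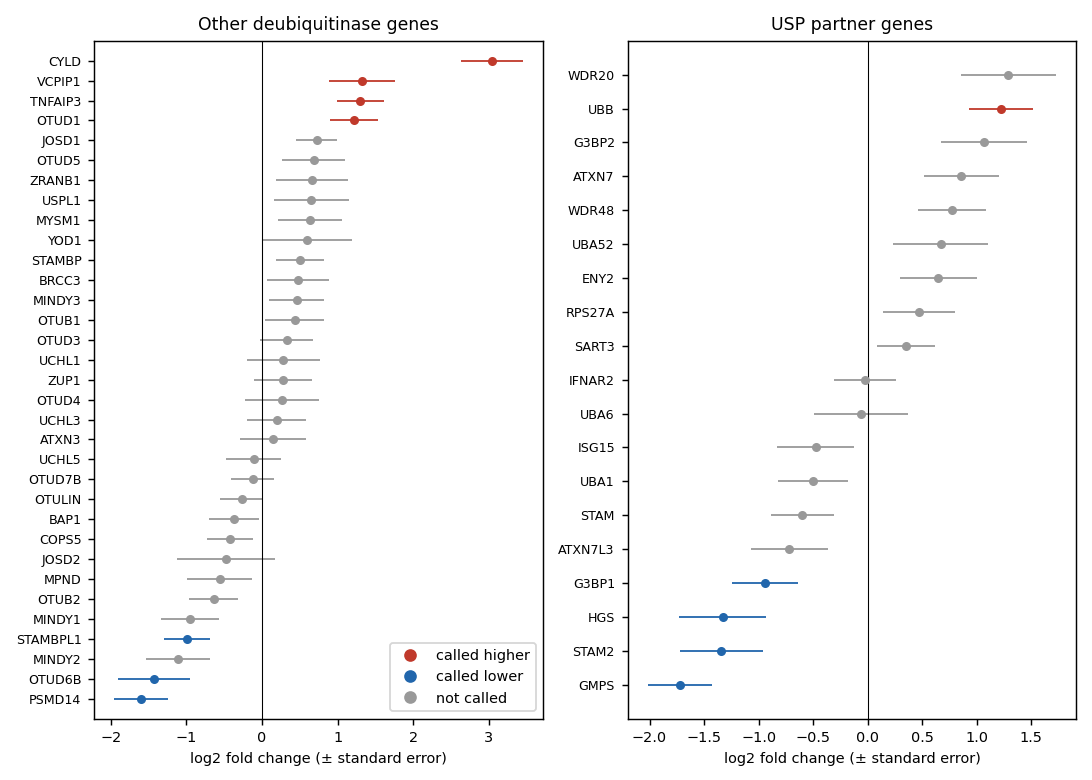
Log2 fold change, CYT against control, with the standard error of edgeR's fit, of the 33 tested deubiquitinase genes of other families (left) and of the partner and ubiquitin genes (right, with 1 uncalled gene not drawn), called genes in colour. CYLD lies highest on the left at 3.04 and GMPS lowest on the right at -1.72.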

How the data were processed

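RNA of 3 control and 3 CYT-treated samples was sequenced by the authors, who removed low-quality, adapter and rRNA reads and aligned the rest with Hisat2. The labels name genome build hg38 and FastQC 0.12.1. The authors deposited raw counts per gene and FPKM values, the latter from Stringtie per the methods. The counting program, its annotation and its use of strand are not given in the sources used here. All 53 genes had the same locus in GENCODE release 29.

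Counts were tested with edgeR 4.0.16 in R 4.3.3 (TMM, filterByExpr with minimum count 10, quasi-likelihood test), with Benjamini-Hochberg adjustment over 15572 genes. Standard errors were derived from each F statistic and its fold change. The scripts were tested on simulated data. Alternatives used DESeq2 1.42.0, limma 3.58.1 on log2(FPKM + 1) and log2(FPKM + 0.1), other normalization and filters, the replicate block, correction for GC content and exonic length from GENCODE (15542 of 15572 genes), and leaving out libraries. Deviations of same-numbered libraries from their group mean had correlations across genes of 0.188, 0.458 and 0.124 for replicates 1 to 3. The reported fit used the groups alone, and the numbers of the labels served as a block in alternative fits only. Some differently numbered libraries correlated more, control replicate 1 with CYT replicate 3 at 0.303 and control replicate 3 with CYT replicate 1 at 0.201. Only replicate 2 correlated best with its own number in both groups. Deviations within a group depend on one another, so these values cannot show whether replicates 1 and 3 were pairs. Members, lists and tests were chosen with earlier results of these data known. Genes named are USP37, USP8, every called USP gene, the most abundant uncalled ones, fixed paralogue groups and genes whose call changed, besides the largest changes in the other lists and partners of the enzymes described. Pairs of replicates differed far beyond sampling noise (chi-square per gene of 25.2 or more), so none was counted as a copy. Each library is 1 replicate. The values of 1 partner gene are not reported here.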

Additional observations from a re-analysis of the deposited data

Results flagged for a closer look

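The 26 USP17L copies, which belong to no comparison, had summed counts of 0, 2 and 1 in control replicates 1 to 3 and of 7, 9 and 9 in CYT replicates 1 to 3, spread over 4 of the copies. They are noted because every CYT library, the lowest at 7 counts, was above every control library. How much sequence the copies share was not measured here, so how well counts can be given to single ones is not known.

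The 7 antisense and lincRNA genes named after a USP gene were also outside the comparisons. Their summed counts were 81, 58 and 63 in control and 114, 117 and 97 in CYT replicates 1 to 3, so the lowest CYT library, at 97 counts, was above the highest control library. USP46-AS1 had 24, 26 and 12 counts in control and 57, 53 and 34 in CYT libraries, and USP30-AS1 had 1, 0 and 0 and then 18, 5 and 10 counts. USP2-AS1, with the most counts in control replicates 1 and 3, had 45, 21 and 29 counts in control and 19, 37 and 19 in CYT libraries, so not every gene of the set was higher. Neither set was tested, and use of strand in counting is not given in the sources used here.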

How the results depend on the processing

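The 9 calls of USP genes became 18 with the replicate block, 22 with the correction for GC content and length, 22 with both, and 16 (5 higher, 11 lower) without both libraries of replicate 2, an alternative chosen after seeing the data. The correction called 46.8% of all genes alone and 45.6% with the block. Leaving out 1 library gave from 3 (without control replicate 3) to 15 calls (without CYT replicate 2). USP18 and USP27X were called in each of these fits. The 7 calls of other deubiquitinases became 11 with the correction, with or without the block, and leaving libraries out gave 2 to 8 (2 without control replicate 3). The 5 calls of partner genes became 11 with the block, 12 with the correction, 13 with both, and leaving libraries out gave 2 to 6 (2 without control replicate 3). For the fits with libraries left out, the share of all genes called is not given here, so these counts cannot be set against all genes. What caused these differences was not tested.

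USP37 was called higher by DESeq2 (log2 fold change 1.37, adjusted p = 0.0298), with the block (1.25), with the correction (1.33, adjusted p = 0.00960 from edgeR) and with both (1.36, adjusted p = 0.0113 from edgeR), and had 0.60 to 1.64 with a library left out. The block also called USP1, USP38 and USP45 higher and USP7, USP14, USP25, USP34 and USP48 lower, and changed no other call of a USP gene. Without CYT replicate 2, USP7, USP14, USP25, USP34, USP47 and USP48 were called lower.

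Uncalled genes near 0 changed sign. USP3 was 0.014 with DESeq2, 0.13 after upper-quartile scaling, 0.086 among genes averaging 5 CPM or more, 0.055 among protein-coding genes, 0.066 with the correction and 0.070 with correction and block. USP6NL was 0.0029, 0.12, 0.074, 0.045, 0.12 and 0.12 in the same fits, and USP9X was -0.042 with no filter. Without both libraries of replicate 2, USP24 was -0.18, USP32 -0.19 and USP43 -0.091 (up to 0.42 with 1 library left out). With a library left out, ranges crossed 0 for USP3 (-0.31 to 0.15), USP6NL (-0.25 to 0.13), USP9X (-0.28 to 0.41), USP15 (-0.81 to 0.059), USP21 (-0.37 to 0.059), USP24 (-0.39 to 0.39), USP32 (-0.20 to 0.37), USP33 (-0.16 to 0.54), USP42 (-0.50 to 0.025) and USP53 (-0.10 to 0.48). Depth limits USP2, USP6, USP41 and the 6 untested members.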

Other observations

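The 4 USP genes called higher had GC contents from 47.0% to 60.5% (median 52.5%), and the 5 called lower from 46.0% to 51.6% (median 49.6%), while the 38 genes without a call had a median of 43.3%. Exonic lengths had medians of 5395 bp, 6659 bp and 7775.5 bp in these 3 groups. The levels of the groups differed too, with median FPKM of 4.02, 4.33 and 1.49 in the same order. These are descriptions of annotation and level, with no test.

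Both USP27X and USP11 lie on the X chromosome. USP9X, the other X-linked member with enough counts for a test, had a log2 fold change of 0.04, and USP26 and USP51 had no count in any library. USP32 and USP6, which is a recent copy of part of it, had log2 fold changes of 0.18 and 0.85, neither called, and 4.98% of the 50-base words of USP6 transcripts also occur in USP32.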
